A study of Mus with 4 samples.

Results

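The genes described here are 38 members of the bone morphogenetic protein (BMP) and transforming growth factor beta (TGF-beta) pathways, taken by symbol as ligands, receptors, Smads, Id targets, antagonists and regulators. Of these, 37 were found on the array through 56 probes, among 16358 named genes and 41174 probes in all, and *Smad7* could not be matched. They were compared between nephron progenitors with and without the prorenin receptor (PRR).

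Cells of the cap mesenchyme marked by a *Six2*-driven EGFP were sorted from mouse kidneys at embryonic day 15.5 (E15.5), and RNA of pooled kidneys was hybridized to 4 dual-colour Agilent arrays on 1 slide. *Mut* pools came from Six2 Cre+ PRR flox/flox embryos and *WT* pools from Six2 Cre+ PRR+/+ littermates, so both carried the *Six2*GFPCre transgene, which expresses Cre in *Six2*-positive progenitors, so that PRR was deleted in them and their descendants and not in other kidney cells. Arrays 1 to 3 each held a *Mut* pool in Cy3 and the *WT* pool of the same number in Cy5. On array 4, the *WT* vs *WT* array, Cy5 marked *WT* pool 1 and Cy3 marked *WT* pool 2. The dyes were never exchanged between the genotypes, so an effect of the dye and one of the genotype cannot be told apart on arrays 1 to 3 alone.

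BMP ligands bind a type I and a type II receptor, which phosphorylate Smad1 and Smad5. TGF-beta and activin ligands act in the same way through Smad2 and Smad3, and both branches share Smad4. The Id genes, which encode inhibitors of basic helix-loop-helix factors, are direct targets of the BMP branch, and in the kidney Bmp7 from the cap mesenchyme keeps the progenitors alive and cycling.

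Ratios below are log2 *Mut*/*WT* after loess, with a direction that rests on the dyes in the labels. For *Smad3*, *Bmp6*, *Pdgfrb* and the second *Smad5* probe, it is opposite to the direction that the study lists. Means are over arrays 1 to 3, with a standard error from limma, and levels are log2 signals of a single channel, which are not compared between probes. With median centring in place of loess, the median of the probes well above background in both channels moved from 0.00 to -0.44. The move differed between probes, with *Id3* going from -0.32 to -0.98 and *Inhba* from -0.37 to -0.39. A sign under median centring carries that move, and values under it are given relative to this median of bright probes. A place above that median does not by itself mark a rise. *Bmp2*, which did not pass, lay above it by 0.37, and *Bmp6*, which fell, by 0.32. Where several probes read the same gene, the one with the highest mean signal stands for it. A gene is said to have risen or fallen where its limma P, adjusted by Benjamini-Hochberg over 41166 probes, was under 0.05, and is called differentially expressed where the change was also over 1.5-fold, which is 0.585 on the log2 scale. Per the study's methods the pools of a genotype came from a random division of sorted cells, each of several kidneys, with no word on separate litters, so the P-values measure only the spread between these 3 pairs of pools, which may be technical. With bulk RNA of sorted cells, a change in RNA per cell and a change in the share of a cell type cannot be told apart.

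The *WT* vs *WT* array stood apart. *WT* pool 1 in Cy5 had a log2 level of 10.78 for *Id2* on array 1 and of 11.31 on array 4. The summed signal of 8 erythroid genes lay between 1809 and 1983 in the *WT* pools and between 3604 and 3773 in the *Mut* pools of arrays 1 to 3, and at 4139 and 3648 in the *WT* pools of array 4. Only 2 of these 8 genes were well above background in both channels and 4 were so in neither, and most of the sum was *Hba-a1*, with a mean log2 level of 10.43 in *WT* and 11.59 in *Mut*. For 11 differentiating nephron genes these sums were 2506 to 2623, 3344 to 3530, and 3583 and 3589. Both *WT* pools of array 4 thus resembled *Mut* more than *WT* in these genes, and its values are given beside the members that passed the test. For 12 nephron progenitor genes, of which 11 were well above background in both channels on arrays 1 to 3, the sums were 30330 to 31566 in *WT*, 27315 to 28728 in *Mut*, and 29677 and 27511 on array 4. Of the 12, 2 rose and 6 fell, and *Crym*, with a mean log2 level of 13.98 in *WT* and 13.70 in *Mut*, made the largest part of the sum. The sums of 10 stromal genes, 9567 to 10056 in *WT*, 9731 to 9843 in *Mut*, and 10789 and 10365 on array 4, lay close together. By the brightest probe of each, 6 rose, among them *Col1a1* by 0.89, *Col3a1* by 0.78 and *Pdgfrb* by 0.60, and 3 fell, among them *Acta2* at -1.24, whose second probe rose by 0.39. The part of these cell types in the results below was not tested. *Atp6ap2*, which encodes PRR, had ratios of -0.08, -0.19 and -0.25 on arrays 1 to 3 and of -0.19 on the *WT* vs *WT* array. The sources used here do not say whether its probe lies in the deleted part, so it does not check the labels. The dye term described below left 0.02 for *Atp6ap2*, and the RT-PCR with which the study checked the deletion was not analysed here.

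Of the 37 genes, 2 were called differentially expressed. *Id2* was higher in *Mut* and *Acvr2b*, a type II receptor for activins and BMPs, was lower. That is 2.7% in each direction, against 0.434% of 16355 named genes called higher and 1.59% called lower. By the adjusted P alone 8 genes rose (21.6%) and 9 fell (24.3%), and 20 did not pass, against 14.4% and 18.6% of the named genes. Among the 25 members well above background in both channels on arrays 1 to 3, 7 rose and 7 fell (28% each), against 20.6% and 25.8% of 9351 named genes as bright. The median ratio of the 37 genes was -0.02 and that of the named genes was 0.00. Single members lay between -0.73 and 0.60. Over the 56 probes, 1 was called higher and 2 lower, against 0.551% and 1.46% of all probes, and the third of these was a probe of *Smad5*.

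**Figure D1:**
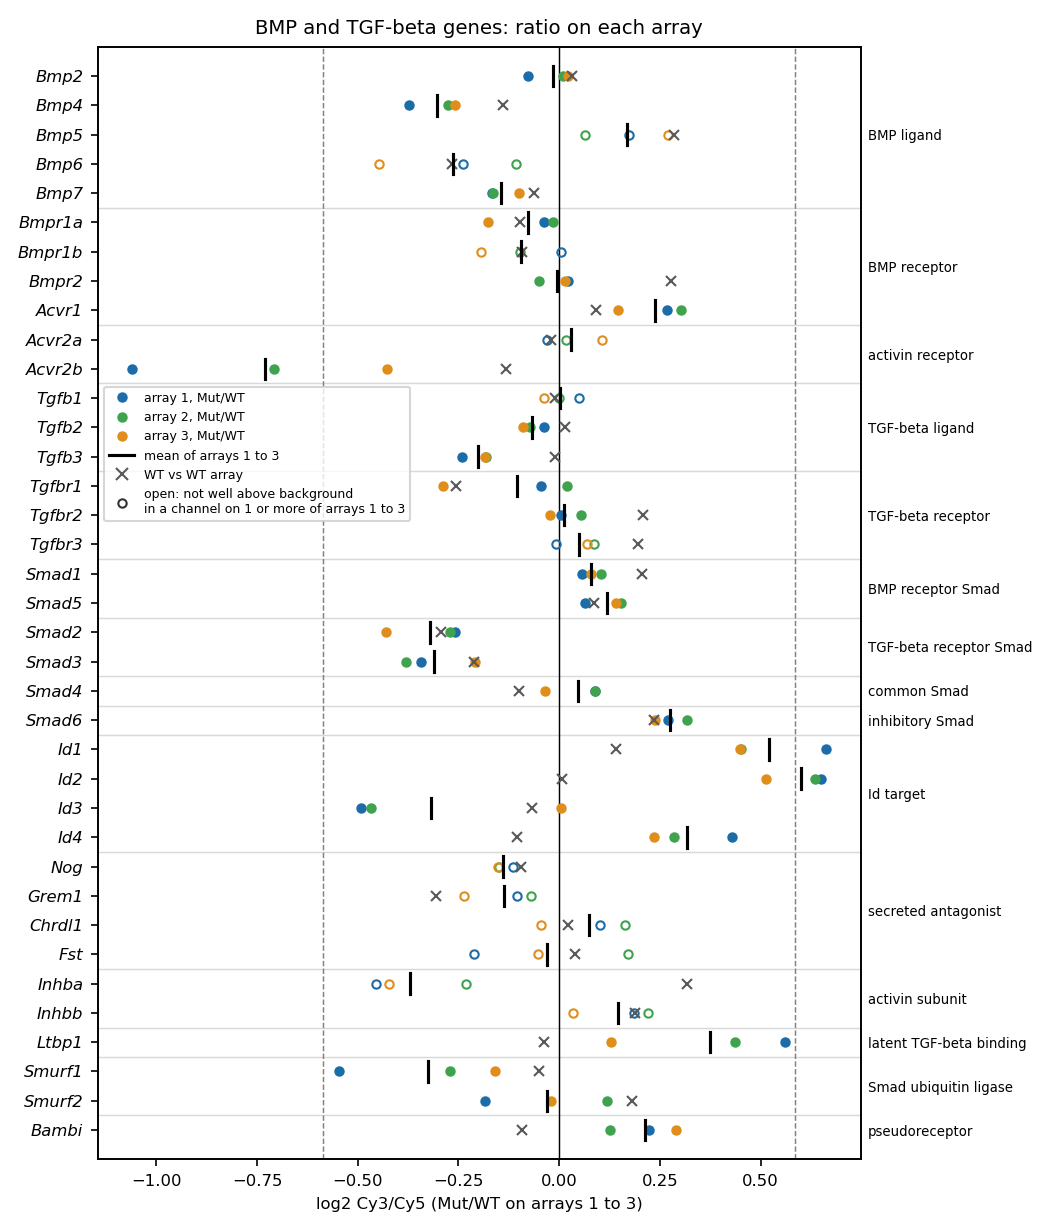
Log2 Cy3/Cy5 ratio (x axis) of each of 37 genes (y axis, grouped by role) at its probe with the highest mean signal, with points for arrays 1 to 3, a bar for their mean, a cross for the *WT* vs *WT* array and dashed lines at 1.5-fold. The means of *Id2* and *Acvr2b* lie beyond the dashed lines. Under median centring, which is not drawn here, *Id1*, *Id2*, *Id4*, *Smad6*, *Acvr1*, *Ltbp1* and *Bambi* were below 0 and above the median of bright probes by 0.17 to 0.43.

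The Id genes split. After loess *Id1*, *Id2* and *Id4* rose and *Id3* fell, and under median centring, where all 4 lay below 0, the first 3 were above the median of bright probes and *Id3* below it. Each was well above background in both channels on arrays 1 to 3. *Id2* had levels of 10.78, 10.68 and 10.89 in *WT* pools 1 to 3 and of 11.43, 11.31 and 11.41 in *Mut* pools 1 to 3, which do not overlap. Its ratios were 0.65, 0.63 and 0.51, a mean of 0.60 (SE 0.054, n = 3 arrays, limma adjusted P = 1.8e-05), or 1.51-fold. Without array 1 or array 2 the mean was 0.57 or 0.58, under 1.5-fold. A second *Id2* probe rose by less, with a mean of 0.26 (adjusted P = 0.0048).

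*Id1* had levels of 8.73, 8.83 and 8.74 in *WT* and of 9.39, 9.29 and 9.19 in *Mut*. Every *Mut* pool was above every *WT* pool, with ratios of 0.66, 0.45 and 0.45 and a mean of 0.52 (SE 0.059, adjusted P = 7.3e-05). For *Id4* the levels were 7.37, 7.51 and 7.40 in *WT* and 7.80, 7.80 and 7.64 in *Mut*, again without overlap. The mean ratio of *Id4* was 0.32 (SE 0.056, adjusted P = 0.0014). The second probes of *Id1* and *Id4* rose too, by 0.46 and 0.36.

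*Id3*, which is usually induced by BMP together with *Id1*, had levels of 12.05, 12.48 and 12.43 in *WT* and of 11.56, 12.01 and 12.43 in *Mut*. The groups overlap, because *Mut* pool 3 was level with its *WT* partner. The ratios were -0.49, -0.47 and 0.01, with a mean of -0.32 (SE 0.084, adjusted P = 0.015), and without array 2 *Id3* did not pass (adjusted P = 0.11), nor did it in the fit of unpaired channels (adjusted P = 0.24).

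On the *WT* vs *WT* array the *Id2* levels of *WT* pools 1 and 2 were 11.31 and 11.32, level with the lowest *Mut* pool and above every *WT* pool of arrays 1 to 3. *Id4* stood at 7.83 and 7.72 there, also nearer to *Mut* in both pools, and *Id1* at 9.01 and 9.16. In the same dye, the mean of the *Mut* pools was above *WT* pool 2 of array 4 by 0.06 for *Id2*, 0.13 for *Id1* and 0.02 for *Id4*, and the difference was -0.58 for *Id3*. The ratios of the *WT* vs *WT* array itself were 0.01 for *Id2*, 0.14 for *Id1*, -0.10 for *Id4* and -0.07 for *Id3*. A dye term taken from that array rests on 1 ratio of different *WT* pools, so a difference between the dyes and one between these pools cannot be told apart in it. With this term *Id2* was still called (0.59, adjusted P = 0.024), as were 0.245% of the named genes higher and 0.556% lower, whereas *Id1* (0.38, adjusted P = 0.16) and *Id4* (0.42, adjusted P = 0.11) did not pass. The dye term uses the ratio within array 4 and not the level of its pools. The part of the erythroid and differentiating nephron genes, whose sums moved in the same way, was not tested.

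Under median centring *Id1*, *Id2* and *Id4* had ratios of -0.02, -0.03 and -0.03. Relative to the median of bright probes they stood at 0.43, 0.42 and 0.42, and *Id3* at -0.53.

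**Figure D2:**
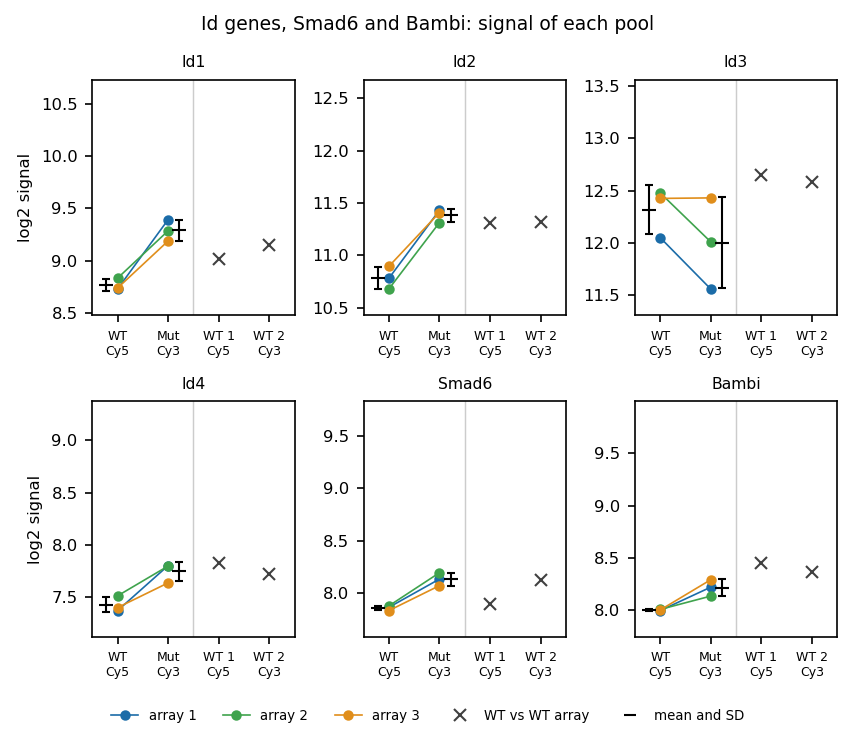
Log2 channel signal (y axis) of *Id1*, *Id2*, *Id3*, *Id4*, *Smad6* and *Bambi* in each pool (x axis), with lines joining the pools of an array, bars for mean and SD of 3 pools and crosses for the *WT* vs *WT* array. *Id2*, *Id4* and *Bambi* in both *WT* pools of that array lie nearer to *Mut* than to *WT* of arrays 1 to 3, while *Id3* lies above both groups. Under median centring, which is not drawn here, the ratios of *Id1*, *Id2*, *Id4*, *Smad6* and *Bambi* were below 0 and above the median of bright probes by 0.21 to 0.43.

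*Smad6* and *Bambi*, a pair of inhibitors of the BMP branch, rose after loess, and under median centring lay below 0 but above the median of bright probes. *Smad6*, which competes with the receptor Smads, had levels of 7.86, 7.88 and 7.83 in *WT* and of 8.13, 8.19 and 8.07 in *Mut*, without overlap, and rose by 0.28 (SE 0.051, adjusted P = 0.0020). The *WT* vs *WT* array had a ratio of 0.23 for *Smad6*, about as large, and the dye term left 0.04 (adjusted P = 0.90). *Bambi*, a receptor without a kinase domain that blocks signalling, had levels of 7.998, 8.010 and 8.004 in *WT* and of 8.22, 8.14 and 8.29 in *Mut*. It rose by 0.21 (SE 0.054, adjusted P = 0.012), but on array 4 it stood at 8.45 and 8.36, above every *Mut* pool. A second, dim probe of *Bambi* had a mean of -0.06 (adjusted P = 0.45). Under median centring *Smad6* was at -0.15 and *Bambi* at -0.24, which is 0.30 and 0.21 above that median.

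The type II receptor *Acvr2b* fell. Its levels were 8.86, 8.55 and 8.71 in *WT* and 7.80, 7.84 and 8.29 in *Mut*, and every *Mut* pool was below every *WT* pool. The ratios were -1.06, -0.71 and -0.43, with a mean of -0.73 (SE 0.092, adjusted P = 1.5e-04), 1.66-fold lower. The fall was largest on array 1, and without that array the mean was -0.57, under 1.5-fold. On the *WT* vs *WT* array both pools had *WT* levels, 8.76 and 8.62, and the *Mut* mean differed from *WT* pool 2 in the same dye by -0.65. With the dye term the value was -0.60 (adjusted P = 0.16). Its paralogue *Acvr2a* was well above background in *Mut* on 1 array only and had a mean of 0.03 (adjusted P = 0.71).

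The type I receptor *Acvr1*, which binds BMPs and activin, rose by 0.24 (SE 0.054, adjusted P = 0.0064), with levels of 8.55, 8.66 and 8.62 in *WT* and of 8.81, 8.96 and 8.77 in *Mut*. The groups did not overlap, and on array 4 the *WT* pools stood at 8.47 and 8.56, at the *WT* side. Without array 2 *Acvr1* did not pass (adjusted P = 0.078). Under median centring it was at -0.28, above the median of bright probes by 0.17. *Bmpr1a*, the main type I BMP receptor, had ratios of -0.04, -0.02 and -0.18 and a mean of -0.08 (adjusted P = 0.32). *Bmpr2*, its type II partner, had ratios of 0.02, -0.05 and 0.01 and a mean of -0.01 (adjusted P = 0.95). *Bmpr1b* was well above background in *WT* only, with a mean of -0.10 (adjusted P = 0.23).

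None of the TGF-beta receptors passed at the brightest probe. *Tgfbr1*, the type I receptor, had a mean of -0.10 (adjusted P = 0.24), with ratios of -0.05, 0.02 and -0.29. Its second, dimmer probe fell by 0.39 (adjusted P = 9.5e-04) and was well above background in *Mut* on 2 of 3 arrays. On array 4 the *WT* pools stood at 6.77 and 6.85 at that probe, nearer to the *Mut* mean of 6.75 than to the *WT* mean of 7.13. The *Mut* mean differed from *WT* pool 2 in the same dye by -0.10, and a dye term from array 4 gave -0.46 (adjusted P = 0.13). *Tgfbr2*, the type II receptor, stayed between -0.02 and 0.05 on arrays 1 to 3, with a mean of 0.01 (adjusted P = 0.89). *Tgfbr3*, the co-receptor betaglycan, was dim, with neither channel well above background on arrays 1 to 3, and had a mean of 0.05 (adjusted P = 0.50).

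Among the Smads, those of the TGF-beta branch fell. *Smad2* had levels of 8.38, 8.31 and 8.38 in *WT* and of 8.12, 8.03 and 7.95 in *Mut*, without overlap, and a mean ratio of -0.32 (SE 0.056, adjusted P = 0.0012). The *WT* vs *WT* array gave a ratio of -0.29 for *Smad2*, and the dye term left -0.03 (adjusted P = 0.94). *Smad3* had levels of 8.96, 9.11 and 9.09 in *WT* and of 8.62, 8.73 and 8.88 in *Mut*, and fell by 0.31 (SE 0.055, adjusted P = 0.0014). The ratio of the *WT* vs *WT* array was -0.21 for *Smad3*, the dye term left -0.10 (adjusted P = 0.74), and its second probe fell by 0.28 (adjusted P = 0.0016). *Smad4*, shared by both branches, had a mean of 0.05 (adjusted P = 0.54), and *Smad1* of the BMP branch 0.08 (adjusted P = 0.27).

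The 3 probes of *Smad5*, the other Smad of the BMP branch, disagreed. The brightest had ratios of 0.06, 0.15 and 0.14 and a mean of 0.12 (adjusted P = 0.11). The second had levels of 9.19, 9.05 and 9.18 in *WT* and of 7.73, 7.76 and 8.27 in *Mut*, far apart, with ratios of -1.46, -1.29 and -0.92. Its mean was -1.22 (SE 0.084, adjusted P = 3.0e-06), 2.33-fold lower, the largest change of any member probe. It lay between -1.38 and -1.10 when single arrays were left out, at -0.83 with the dye term (adjusted P = 0.043), and at -0.63 against *WT* pool 2 in the same dye. The *WT* vs *WT* array had a ratio of -0.39 at this probe. The third and dimmest probe, still well above background in both channels on every array, fell by 0.15 (adjusted P = 0.049) and did not pass without any 1 of the arrays (adjusted P between 0.070 and 0.21). The *WT* vs *WT* array had a ratio of -0.21 at the third probe, the dye term turned it to 0.07 (adjusted P = 0.82), and the *Mut* mean was above *WT* pool 2 in the same dye by 0.17. The files give no position of these probes within the transcripts that was used here, so a change of 1 transcript form and a fault of 1 probe cannot be told apart.

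**Figure D3:**
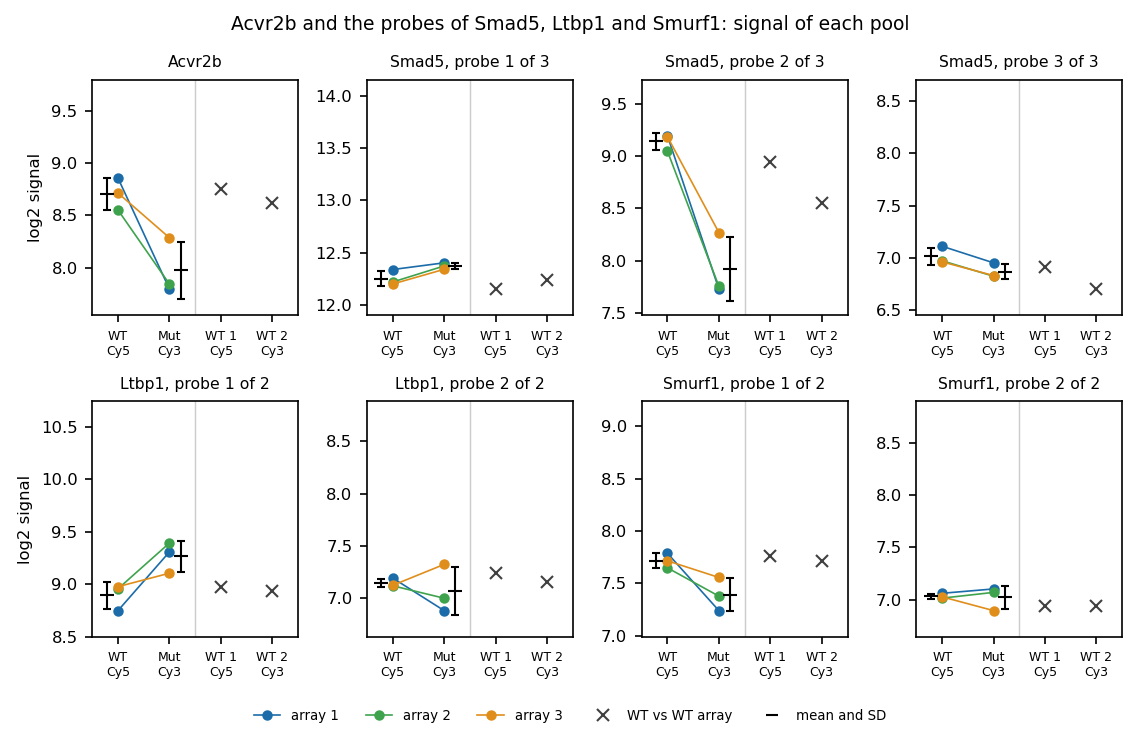
Log2 channel signal (y axis) of *Acvr2b* and of each probe of *Smad5*, *Ltbp1* and *Smurf1*, numbered from the brightest, in each pool (x axis), with lines joining the pools of an array, bars for mean and SD of 3 pools and crosses for the *WT* vs *WT* array. *Acvr2b* and the second *Smad5* probe are lower in all 3 *Mut* pools, while the other probes of *Smad5* move by 0.15 or less.

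Of the 18 members with several probes, 12 had probes of the same sign and 6 did not. *Ltbp1*, which anchors latent TGF-beta in the matrix, had levels of 8.75, 8.96 and 8.98 in *WT* and of 9.31, 9.39 and 9.10 in *Mut* at its brighter probe. It rose by 0.38 there (SE 0.074, adjusted P = 0.0027), and the *Mut* mean was above *WT* pool 2 in the same dye by 0.34. The dimmer probe had ratios of -0.31, -0.12 and 0.20 and a mean of -0.08 (adjusted P = 0.51). Under median centring the brighter one was at -0.17, above the median of bright probes by 0.28. *Smurf1*, a ubiquitin ligase that removes Smad1 and Smad5, fell by 0.33 at its brighter probe (SE 0.070, adjusted P = 0.0046), with levels of 7.79, 7.65 and 7.72 in *WT* and of 7.24, 7.38 and 7.56 in *Mut*. On array 4 it stood at 7.76 and 7.71, as in *WT*, and its dimmer probe had a mean of -0.01 (adjusted P = 0.90). *Smurf2*, its close relative, had ratios of -0.18, 0.12 and -0.02 and a mean of -0.03 (adjusted P = 0.77).

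Of the BMP ligands, *Bmp4* fell. Its levels were 8.60, 8.53 and 8.53 in *WT* and 8.22, 8.25 and 8.27 in *Mut*, without overlap, with a mean ratio of -0.30 (SE 0.053, adjusted P = 0.0012). On array 4 *WT* pool 2, in Cy3, stood at 8.32, nearer to *Mut*, and *WT* pool 1, in Cy5, at 8.45. With the dye term *Bmp4* was at -0.16 (adjusted P = 0.52).

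*Bmp7*, the ligand that the progenitors themselves make, had levels of 11.73, 11.69 and 11.70 in *WT* and of 11.57, 11.53 and 11.60 in *Mut*. The *Mut* pools were lower on every array, by little: the mean ratio was -0.14 (SE 0.051, adjusted P = 0.055) and did not pass. A second probe of *Bmp7* did, with -0.17 (adjusted P = 0.028), but not without array 1 or array 2 (adjusted P = 0.11 and 0.12) or with the dye term (-0.11, adjusted P = 0.68). On array 4 *WT* pool 2 stood at 11.63 at the brighter probe, and the *Mut* mean differed from it in the same dye by -0.07 there and by -0.01 at the second probe.

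*Bmp2* had ratios of -0.08, 0.01 and 0.02 and a mean of -0.02 (adjusted P = 0.85). *Bmp5* was dim, with neither channel well above background on arrays 1 to 3, and its ratio of 0.17 (adjusted P = 0.041) has no level behind it. Without any 1 of the arrays it did not pass (adjusted P between 0.059 and 0.17), nor in the fit of unpaired channels (adjusted P = 0.069). The dye term turned it to -0.11, since the *WT* vs *WT* array had a ratio of 0.28. A second probe of *Bmp5*, also dim in both channels, rose by 0.19 (adjusted P = 0.031). It had a ratio of 0.02 on the *WT* vs *WT* array and stayed at 0.17 with the dye term (adjusted P = 0.56). *Bmp6* was well above background on arrays 1 to 3 in *WT* only, and on array 4 in Cy5 only. Its mean ratio was -0.26 (adjusted P = 0.010). Its *Mut* level is a bound. It was taken as the higher of its own signal and the lowest signal of any probe well above background on that array. By this bound *Bmp6* was at least 1.06-fold lower in *Mut*. In the same dye, the *Mut* mean was above *WT* pool 2 of array 4 by 0.09, so the bound cannot tell genotype from dye. The *WT* vs *WT* array had a ratio of -0.27, and the dye term brought that of *Bmp6* from -0.26 to 0.00. A second, dim probe of *Bmp6* had a mean of -0.06 (adjusted P = 0.44).

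Of the TGF-beta ligands, *Tgfb3* fell. Its levels were 10.57, 10.50 and 10.45 in *WT* and 10.33, 10.32 and 10.27 in *Mut*, without overlap, with a mean of -0.20 (SE 0.051, adjusted P = 0.012), and without array 2 it did not pass (adjusted P = 0.067). Both *WT* pools of array 4, at 10.26 and 10.25, lay below every *Mut* pool. *Tgfb2* had a mean of -0.07 (adjusted P = 0.36). *Tgfb1* was well above background in *WT* on 1 array and in *Mut* on none.

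The activin subunit *Inhba* was well above background on arrays 1 to 3 in *WT* only, with *WT* levels of 6.88, 6.64 and 6.84 and *Mut* signals of 6.43, 6.41 and 6.42. Its mean ratio was -0.37 (adjusted P = 6.6e-04), and by a bound taken as for *Bmp6* it was at least 1.28-fold lower in *Mut*. On array 4 *WT* pool 1 stood at 6.36, which differs from its own level on array 1 by -0.52, so *WT* pool 1 was both above and below the *Mut* signals. The dye term put *Inhba* at -0.69 (adjusted P = 0.018), through a ratio of 0.32 on array 4 in which that lower level of *WT* pool 1 enters. *Inhbb*, the other beta subunit, was dim in both channels, with a mean of 0.15 (adjusted P = 0.069).

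None of the secreted antagonists passed, and none was well above background in both channels on arrays 1 to 3. *Nog* was well above background on arrays 1 to 3 in *WT* only, and on the *WT* vs *WT* array in Cy5 only. It had a mean of -0.14 (adjusted P = 0.060). *Fst*, which binds activin, had levels of 6.56, 6.99 and 6.56 in *WT* and of 6.35, 7.16 and 6.50 in *Mut*, so the higher value of pool 2 was shared by both genotypes. *Grem1* and *Chrdl1*, which bind BMPs, were dim in both channels, with means of -0.14 (adjusted P = 0.083) and 0.07 (adjusted P = 0.36).

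For the 14 members that passed the adjusted P and were well above background in both channels, the 2 *WT* pools of array 4 can be set against both groups. Of 7 that rose, *Id2*, *Id4* and *Bambi* were nearer to *Mut* in both pools, and *Acvr1* and *Ltbp1* nearer to *WT* in both. Of 7 that fell, *Tgfb3* was nearer to *Mut* in both, and *Acvr2b*, *Smad3*, *Id3* and *Smurf1* nearer to *WT* in both. The remaining 4 differed between the 2 pools. With the dye term, 2 of the 17 members that passed the adjusted P still did, *Id2* and *Inhba*, and 15 did not, with the term estimated from 1 array. Of the 5391 named genes that passed after loess, 162 (3.01%) still did, so most calls were lost with this term in all genes. Of 9 further member probes that had passed, 1 still did, the second of *Smad5*. Values with it were 0.15 for *Acvr1*, -0.25 for *Id3*, -0.19 for *Tgfb3*, 0.41 for *Ltbp1*, -0.28 for *Smurf1* and 0.30 for *Bambi*, with adjusted P between 0.22 and 0.59. Of the 20 members that had not passed, 13 had a ratio farther from 0 on the *WT* vs *WT* array than in the mean of arrays 1 to 3, among them *Bmpr2* (0.28), *Tgfbr1* (-0.26), *Tgfbr2* (0.21) and *Smad1* (0.21).

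**Figure D4:**
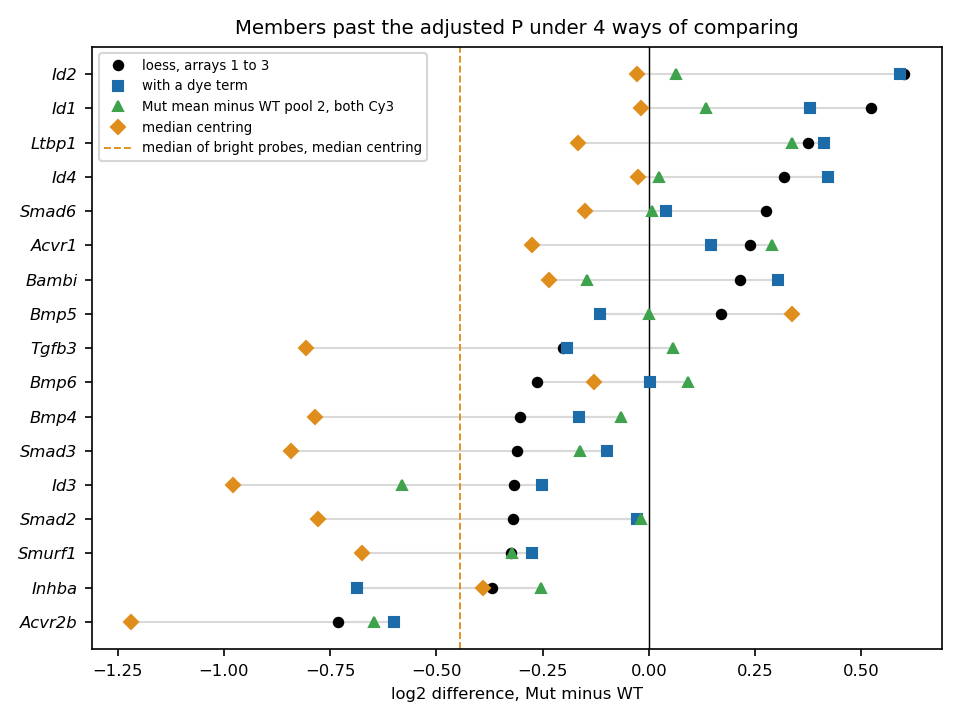
Log2 difference between *Mut* and *WT* (x axis) of the 17 members that passed the adjusted P (y axis), after loess, with a dye term from the *WT* vs *WT* array, as the *Mut* mean minus *WT* pool 2 in the same dye, and after median centring. The dashed line is the median of bright probes under median centring, -0.44. By median centring *Id1*, *Id2* and *Id4* lie above it and *Acvr2b*, *Id3*, *Smad3*, *Smad2* and *Bmp4* below it. *Bmp6* and *Inhba*, which fell after loess, also lie above it, at -0.13 and -0.39. Against *WT* pool 2, *Id1*, *Id2* and *Id4* lie between 0.02 and 0.13.

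Of 89 further genes of the pathway, 84 were measured, and 1 was called higher and 2 lower. The shares of all named genes were 0.434% and 1.59%. By the adjusted P alone 13 rose (15.5%) and 20 fell (23.8%), and 51 did not pass, against 14.4% and 18.6% of the named genes. *Junb*, an immediate early gene that TGF-beta and BMP can induce, had ratios of 0.65, 0.69 and 0.62 and rose by 0.65 (SE 0.051, adjusted P = 6.8e-06). On array 4 both of its *WT* pools were nearer to *Mut*, and the *Mut* mean differed from *WT* pool 2 in the same dye by -0.03. *Usp15*, a deubiquitinase that acts on receptor Smads and Tgfbr1, had ratios of -1.01, -0.96 and -0.89 and a mean of -0.95 (SE 0.052, adjusted P = 5.8e-07), against -0.43 on the *WT* vs *WT* array. *Fkbp1a*, which holds type I receptors inactive, had ratios of -0.78 and -0.45 on arrays 2 and 3, a larger fall on array 1 and a mean of -0.74 (SE 0.084, adjusted P = 7.7e-05), against -0.15 on the *WT* vs *WT* array. With the dye term 0 of the 84 genes were called by limma, and 1 passed an unadjusted P under 0.05 with over 1.5-fold.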

How the data were processed

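For 4 dual-colour arrays, scanner files of Agilent Feature Extraction (10.7.3.1 per the labels) were used. Their intensity values, as the authors deposited them, are linear and not normalized, for spots as well as local backgrounds. The deposited log10 ratio of red over green had been background-subtracted and dye-normalized by that program, which set it to 0 at 7218 to 8652 spots per array, and the series table held the same values. The normalization that the study ran in GeneSpring was not used here.

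Median signals were background-corrected (normexp, offset 50) and normalized by loess within arrays, without control spots and 122 to 162 outlier spots per array. Spots of a probe were averaged, and single channels were scaled by Aquantile. Ratios of arrays 1 to 3 were tested against 0 with limma 3.58.1 (lmFit, eBayes) in R 4.3.3. The methods' *t*-test was an alternative. The median signal was 65.5 to 82 in Cy3 and 84 to 92 in Cy5, against a background of 16 to 17 and 50, so many probes were near background. Precision is limited by having 3 arrays. A probe counted as well above background where most of its spots were marked so. In Cy5 54.1% to 58.3% of probes per array were so, and in Cy3 45.1% to 51.1%, with Cy5 the higher on every array.

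Each array pairs a *Mut* and a *WT* pool. Their deviations from the group means correlated over probes at 0.386, 0.428 and 0.318. Symbols came from a RefSeq table of GRCm38.p6 through the accessions of the array, and 18223 probes stayed unnamed. *Gdf11*, *Nodal*, *Crim1*, *Lrrc32* and *Zfyve9* of the wider list, and *Csf1r* and *Cd68* of the macrophage markers, were not matched. The members, the wider list and the marker lists were chosen with earlier results of these data known. Values on every array are given for members past a threshold and for those of the same role, and for called genes of the wider list. Summed signals of the other marker lists were 2831 to 2882 in *WT* and 2675 to 2768 in *Mut* for 10 ureteric bud genes, 876 to 907 and 877 to 890 for 8 endothelial genes, and 663 to 694 and 619 to 641 for 6 macrophage genes.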

Additional observations from a re-analysis of the deposited data

How the results depend on the processing

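Of 401 member values under alternative settings, 350 kept their sign and their call, and 10 lost and 5 gained a call. Another 9 changed sign for members that had passed the adjusted P, 7 of them under median centring. The other 27 turned sign for members that had not passed, 16 of them by 1 SD of the arrays or more. Members called, 2 with loess and limma, numbered 0 without the normexp offset (5 at an unadjusted P under 0.05), 4 with the deposited log ratios (*Bmp5*, *Bmp6*, *Chrdl1* and *Inhba*, each dim in at least 1 channel), 0 with median centring (10 unadjusted), 1 by the median over probes (*Acvr2b*), 17 with no fold minimum, and 0 by the methods' *t*-test with Benjamini-Hochberg adjustment or 1 unadjusted (*Id2*). Leaving out 1 replicate gave 0 to 2, with 0 without replicate 1, where limma called 0 unadjusted too, and 1 without replicate 2 (*Acvr2b*). The dye term also gave 2, *Id2* and *Inhba*. Member probes called, 3 in all, numbered 0, 7, 0, 26 and 0 without offset (9 unadjusted), with deposited ratios, with median centring (13 unadjusted), with no fold minimum and by the adjusted *t*-test (2 unadjusted), and 1 to 3 without 1 replicate. Of the wider list, 3 called became 0, 6, 0, 33 and 0 under the same 5 settings and 0 with the dye term. Of all probes, 827 became 0 (3522 unadjusted), 2705, 0 (6028 unadjusted), 12187 and 0 (691 unadjusted), and 323 with the dye term. The 827 were 227 higher and 600 lower, against 1489 and 1216 with the deposited ratios and 146 and 177 with the dye term. At their brightest probes, the dye term reversed *Bmp5* (-0.11) and *Bmp6* (0.0015). Median centring, which moved the median of bright probes to -0.44, put *Acvr1* (-0.28), *Smad6* (-0.15), *Id1* (-0.018), *Id2* (-0.027), *Id4* (-0.025), *Ltbp1* (-0.17) and *Bambi* (-0.24) below 0, and all 7 stayed above that median, by 0.17 to 0.43. Members that did not rise lay above it too, among them *Bmp2* by 0.37 and *Bmp6* by 0.32. The causes of these changes were not tested. The fit on unpaired channels, with no replicate block, called the same 2 members, while *Id3* (adjusted P = 0.24) and *Bmp5* (0.069) no longer passed the adjusted P. The same-dye values, the repeat of *WT* pool 1 and the values relative to bright probes were chosen after seeing the data. Signal near background leaves 12 of 37 members without a level in both channels on every array.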
